A study of Mus musculus with 8 samples.

Results

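Cells under osmotic stress were compared with cells under oxidative stress, over 15398 of the 48676 gene rows measured. A row entered the comparison if it reached 0.5 RPKM in at least 2 of the 4 libraries concerned, where RPKM is the number of reads scaled to gene model length and to the mapped reads of the library. The cells were NIH3T3, an established line of mouse embryonic fibroblasts. Osmotic stress was 200 mM KCl for 2 h and oxidative stress was 0.2 mM H2O2 for 2 h, with 2 libraries each. Untreated cells and cells at 44 °C for 2 h (heat shock), also with 2 libraries each, entered the model only to estimate the spread, and untreated values are given to show where a difference lies. All libraries were made from nuclear-enriched RNA after ribosomal RNA depletion, so levels include unspliced and newly made transcripts. Whether the 2 libraries of a group came from separate cultures is not stated in the labels, so the tests measure the spread between these libraries, which may be technical.

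High extracellular KCl draws water out of cells. Mammalian cells respond through p38 MAP kinase and NFAT5, a transcription factor that binds tonicity enhancers and raises the transporters and enzymes that accumulate organic osmolytes. Hydrogen peroxide oxidises protein thiols and damages DNA. Its known transcriptional responses run through NRF2, which binds antioxidant response elements in genes for glutathione, thioredoxin and heme metabolism, and through p53, which drives genes for growth arrest, repair and apoptosis. Both stresses can also engage AP-1 factors and the integrated stress response, in which ATF4 binds amino acid response elements, and the study's title concerns transcription that runs past the ends of genes under stress.

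Of the 15398 rows, 3350 (21.8%) were called different between the stresses at an adjusted p under 0.05. Levels were higher in osmotic stress for 2449 rows (15.9%) and lower for 901 (5.85%), and at least 2-fold so for 554 and 515. The median row was higher in osmotic stress by 0.29 on the log2(RPKM + 0.5) scale, which is the scale of every difference below and understates the change of low rows. The excess of higher calls came with that shift. In bulk samples fewer cells of a kind and less RNA per cell cannot be told apart. Dividing each library by its median-of-ratios factor brought the median to 0.00 and the split to 562 rows higher (3.65%) against 1250 lower (8.12%), and quantile normalization gave 772 against 902. A call in the same direction under all 3 scalings was made for 503 rows higher (3.27%) and 613 lower (3.98%). Differences are therefore read against 0.29 in what follows, and positive calls that ended after median-of-ratios scaling are named.

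The 4 libraries were not equally alike. Log2 values of the 2 osmotic libraries correlated across genes with r = 0.925 and differed with an SD of 0.852, against 0.961 and 0.564 for the oxidative libraries (genes are not independent replicates). In osmotic stress replicate 1 the row AC113316.1 alone held 1030000 RPKM of a column sum of 1943000, and Malat1, a long RNA retained in nuclear speckles, had a listed value of 0 there, against 2040 RPKM in osmotic stress replicate 2 and 2130 and 1850 RPKM in oxidative stress. The number of calls depended on which library was left out, and changed little without osmotic stress replicate 2 or either untreated library. It fell to 29 higher and 54 lower without osmotic stress replicate 1, to 8 and 25 without oxidative stress replicate 1 and to 268 and 404 without oxidative stress replicate 2. It was 525 and 399 without heat shock replicate 1, 528 and 399 without heat shock replicate 2, and 5 and 42 in a fit of the 4 libraries alone. Within the first table (replicate 1 of each stress) the median difference was 0.37 and within the second 0.22, and 8945 rows were higher in osmotic stress in both tables against 3147 lower in both. All 129 called rows that the naming rule chose kept their direction whichever library was left out. That outcome was fixed in advance, because the osmotic and oxidative values of these rows do not overlap, so it is no measure of stability. Most of the 129 lost their call in at least 1 of these fits.

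**Figure D1:**
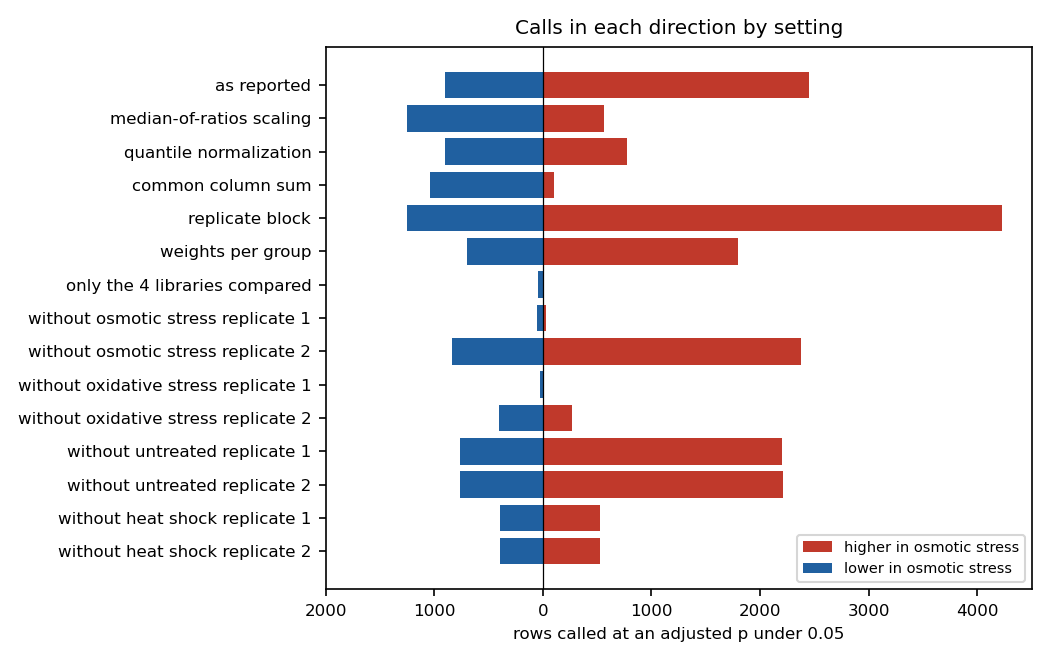
Number of rows called at an adjusted p under 0.05 (x axis) under each setting (y axis), with rows higher in osmotic stress to the right of 0 and rows lower in osmotic stress to the left. The 2449 higher calls of the deposited values became 562 after median-of-ratios scaling, and 8 without oxidative stress replicate 1.

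**Figure D2:**
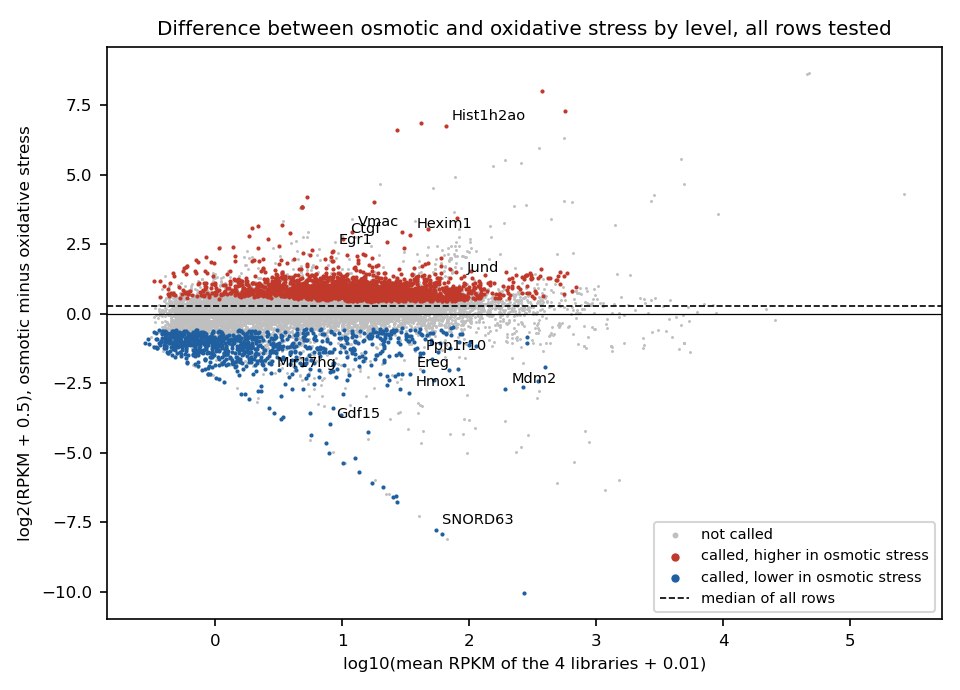
Log2 difference between osmotic and oxidative stress (y axis) against the log10 mean RPKM of the 4 libraries (x axis) for the 15398 rows tested, each point 1 row, with called rows in red (higher in osmotic stress) and blue (lower). The dashed line marks the median of 0.29, and Hexim1 and Vmac lie above it while Gdf15, Hmox1 and Mdm2 lie below.

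Untreated cells placed the higher and the lower rows differently. For the 2449 rows higher in osmotic stress, the median difference of 0.80 was split between a median of 0.49 above untreated cells in osmotic stress and 0.30 below them in oxidative stress (median -0.30). For the 901 lower rows, the median difference of -1.09 lay mainly on the oxidative side, with medians of 0.85 above untreated cells in oxidative stress and -0.23 in osmotic stress. Over all rows these medians were 0.19 for osmotic and -0.10 for oxidative stress. Rows lower in osmotic stress were also rarer in untreated cells, with a median mean level of 1.08 RPKM against 11.5 RPKM for higher rows and 7.08 RPKM for all rows. Rows entered by their osmotic and oxidative levels only, so rows near silent in untreated cells entered through a stress where they were high. Under 0.5 RPKM in both untreated libraries were 286 of the 901 lower rows and 52 of the 2449 higher rows. The part of this entry rule in the medians was not tested. Protein-coding genes made up 84.7% of the higher rows, 51.2% of the lower rows and 75.1% of all rows.

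The p53 target list stood furthest toward oxidative stress among the lists with more than 5 members tested. Of its 25 members tested, 12 were lower in osmotic stress and 1 was higher, beside 5.85% and 15.9% of all rows, and the list's median difference was -0.84 against 0.29 over all rows. The 2 osmotic values lay below both oxidative values for 18 members, beside 16.5% of all rows, and 24 members lay below the median of all rows. After median-of-ratios scaling 15 members were lower and none higher, beside 8.12% and 3.65% of all rows. Leaving out 1 library at a time gave 6 lower members without osmotic stress replicate 1 and 8 to 12 otherwise, except without oxidative stress replicate 1, where 1 remained called and the median was -0.75.

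Gdf15, a secreted stress cytokine of the TGF-beta superfamily, had the largest difference among the named coding rows higher in oxidative stress. It reached 20.6 and 10.7 RPKM in oxidative stress, 0.451 and 0.529 RPKM in osmotic stress and 0.55 and 0.391 RPKM in untreated cells. The osmotic libraries were thus within the range of untreated cells while both oxidative libraries were far above it. The difference was -3.96 ± 0.32 (SE, 2 libraries a side, adjusted p = 0.0053), a 31.9-fold higher mean in oxidative stress.

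Mdm2, the ubiquitin ligase that limits p53, measured 408 and 262 RPKM in oxidative stress, 62.4 and 39.6 RPKM in osmotic stress and 53.5 and 36.8 RPKM in untreated cells. Its difference was -2.71 ± 0.31 (SE, adjusted p = 0.01), or 6.57-fold between the means. Btg2, an antiproliferative partner of the deadenylase complex, measured 46.7 and 28.1 RPKM in oxidative stress, 8.45 and 6.39 RPKM in osmotic stress and 3.99 and 2.55 RPKM in untreated cells, a difference of -2.23 ± 0.30 (adjusted p = 0.013). Both osmotic values of Btg2 were above both untreated ones, which was also true of Fas, Trp53inp1, Bbc3, Plk3 and Eda2r. The other 9 called members, named here after their values were seen, were Gadd45a, Trp53inp1, Fas, Sesn2, Bbc3, Polk, Eda2r, Plk3 and Tnfrsf10b, with differences from -2.17 (Gadd45a) to -0.80 (Tnfrsf10b). They include the death receptors Fas and Tnfrsf10b, the apoptosis activator Bbc3 (PUMA) and the translesion polymerase Polk.

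Cdkn1a, the cell-cycle inhibitor p21, was not called: 27.7 and 22.3 RPKM in oxidative stress against 18.7 and 11.9 RPKM in osmotic stress, a difference of -0.72 ± 0.31 (adjusted p = 0.13). Its untreated values were 13.5 and 7.87 RPKM, between which the lower osmotic value lay. Bax (0.26), Ccng1 (0.10), Rrm2b (0.05) and Ei24 (0.16) had positive differences that did not pass the test and lay below the 0.29 of all rows. The 1 member called higher in osmotic stress, the sestrin Sesn1, measured 7.13 and 8.28 RPKM there and 3.41 and 4.47 RPKM in oxidative stress (0.89 ± 0.21, adjusted p = 0.032), a call that ended after median-of-ratios scaling. DNA damage signalling and repair genes, a separate list of 20, had 1 higher call and 0 lower calls, beside 15.9% and 5.85% of all rows. The higher call was H2afx (0.93 ± 0.27, adjusted p = 0.049, lost after scaling), and the list median was 0.29, the same as all rows.

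**Figure D3:**
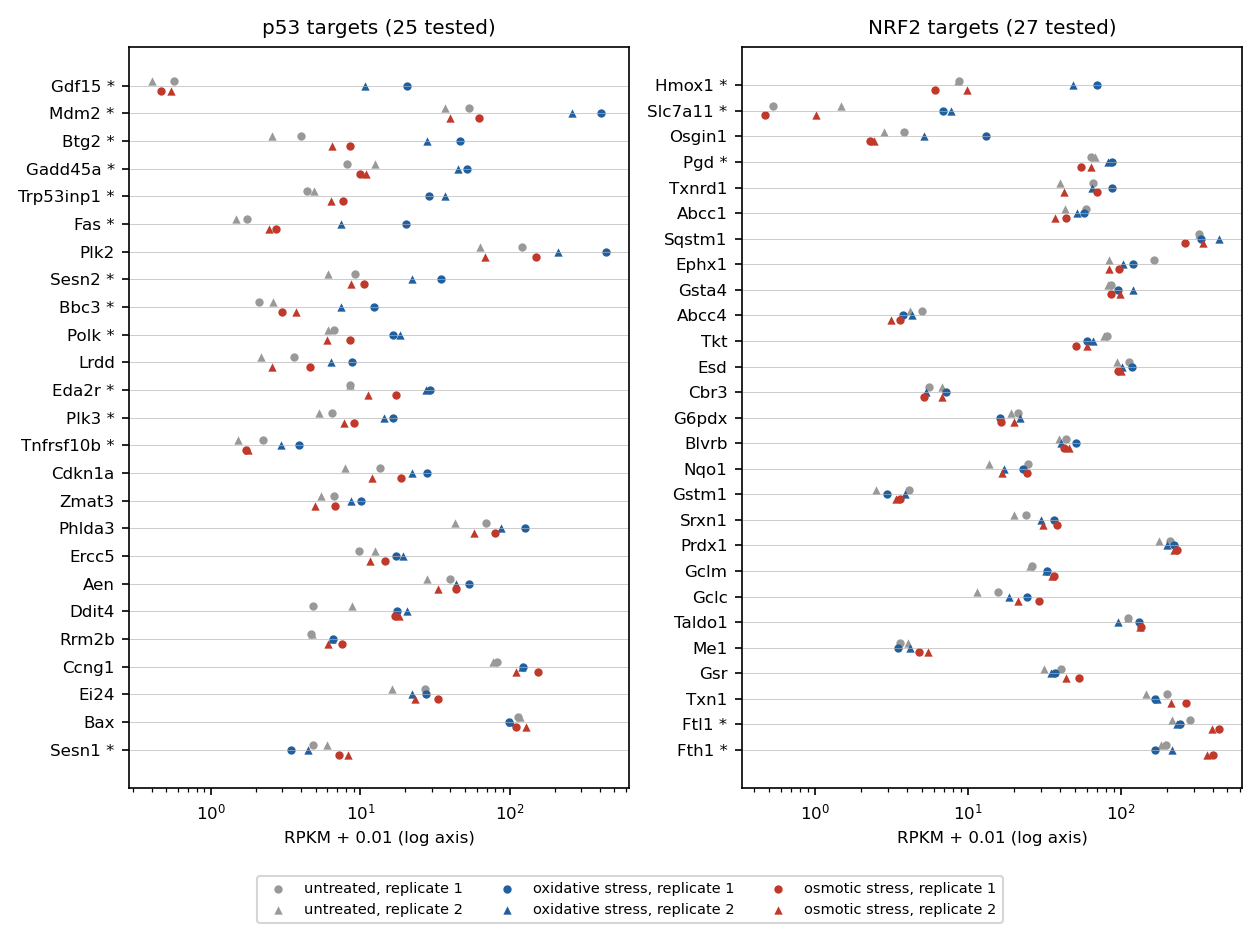
RPKM + 0.01 (x axis, log scale) of each tested p53 target (left) and NRF2 target (right) in the 2 libraries of untreated cells (grey), oxidative stress (blue) and osmotic stress (red), with circles for replicate 1, triangles for replicate 2 and an asterisk on called genes. Gdf15, Mdm2 and Hmox1 separate by stress, with oxidative values of 10.7 to 20.6, 262 to 408 and 49.1 to 69.9 RPKM, while Nqo1 and Srxn1 overlap.

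Calls among NRF2 targets were few and went both ways. Of 27 tested, 3 were lower and 2 higher in osmotic stress, beside 5.85% and 15.9% of all rows. The median difference was -0.05, with 22 members below the median of all rows. After median-of-ratios scaling 4 were lower and 1 higher, beside 8.12% and 3.65% of all rows. Hmox1, which encodes the heme-degrading enzyme heme oxygenase 1, measured 69.9 and 49.1 RPKM in oxidative stress, 6.13 and 9.8 RPKM in osmotic stress and 8.73 and 8.6 RPKM in untreated cells. Both oxidative values were several times every osmotic and untreated value, and the difference was -2.84 ± 0.27 (adjusted p = 0.0069). Slc7a11, the cystine importer that feeds glutathione synthesis, measured 6.88 and 7.78 RPKM against 0.46 and 1.01 RPKM, with 0.521 and 1.48 RPKM in untreated cells (-2.70 ± 0.42, adjusted p = 0.017). The pentose phosphate enzyme Pgd was lower by a small margin, 55.4 and 63.6 RPKM against 88 and 82.2 RPKM (-0.51 ± 0.14, adjusted p = 0.044).

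Other textbook NRF2 targets did not pass the test. Sulfiredoxin (Srxn1) measured 38.1 and 30.8 RPKM in osmotic and 36.5 and 30.1 RPKM in oxidative stress, above 24.1 and 20.1 RPKM in untreated cells, with a difference of 0.05 ± 0.18 (adjusted p = 0.87). Gclm, a subunit of the rate-limiting enzyme of glutathione synthesis, measured 36.7 and 35.8 against 32.9 and 32.5 RPKM (0.15 ± 0.13, adjusted p = 0.41). For both genes the deposited osmotic value was slightly above the oxidative one in each table, and all 4 values were above untreated cells. Both differences were below the 0.29 of all rows, and after median-of-ratios scaling they were -0.27 (Srxn1) and -0.17 (Gclm). Nqo1 differed by 0.02 ± 0.33 and the thioredoxin reductase Txnrd1 by -0.46 ± 0.35, and neither passed the test (adjusted p = 0.96 and 0.35). The iron-storage subunits Fth1 and Ftl1 went the other way, with Fth1 at 403 and 367 RPKM in osmotic against 168 and 217 RPKM in oxidative stress (1.01 ± 0.19, adjusted p = 0.022). Ftl1 differed by 0.81 ± 0.20 (adjusted p = 0.034), and its call ended after median-of-ratios scaling. Among 19 peroxide and superoxide scavenging enzymes, 4 were higher in osmotic stress and 0 lower, beside 15.9% and 5.85% of all rows, and the median was 0.33. Glutaredoxin (Glrx) led them with 11.1 and 9.12 against 4.99 and 5.1 RPKM (0.93 ± 0.17, adjusted p = 0.021), and the calls of Txn2 and Sepx1 ended after median-of-ratios scaling.

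Classical tonicity genes gave few calls between the stresses. Of 25 genes for osmolyte transport, osmolyte synthesis and tonicity response, 2 were higher and 1 lower in osmotic stress, beside 15.9% and 5.85% of all rows. The list median was 0.07. Slc5a3, the myo-inositol transporter, measured 31.2 and 38.5 RPKM in osmotic stress, 22.1 and 35.4 RPKM in oxidative stress and 22.2 and 37.1 RPKM in untreated cells. The groups overlapped (0.30 ± 0.35, adjusted p = 0.54). Slc6a6, the taurine transporter, differed by -0.13 ± 0.21, the amino acid transporter Slc38a2 by -0.01 ± 0.22 and Nfat5 by 0.07 ± 0.23 (adjusted p = 0.67, 0.98 and 0.84). Aldose reductase, which makes sorbitol and is encoded by Akr1b3, measured 14.7 and 30 against 7.07 and 15.2 RPKM, a difference of 0.98 ± 0.61 whose error spans most of its size (adjusted p = 0.26). The replicates of Akr1b3 differed about as much as the group means, in untreated cells (12 and 20.9 RPKM) too. Replicate 2 was the higher in every group, and in each table the osmotic value was above the oxidative one. That order held in each table for Slc5a3 too, while Slc6a6, Slc38a2 and Nfat5 changed direction between the tables. Whether a replicate number pairs libraries is not stated, and the model does not pair them. The 2 higher calls were the p38 kinase gene Mapk14 and the sphingomyelinase gene Smpd3 (0.60 ± 0.17 and 0.73 ± 0.20, adjusted p = 0.046 and 0.043), both lost after median-of-ratios scaling. The lower call was Slc3a2, the shared heavy chain of amino acid transporters that include Slc7a11, at 33.5 and 34.9 against 71.1 and 62.6 RPKM (-0.95 ± 0.14, adjusted p = 0.015).

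Of 24 integrated stress response targets tested, 7 were lower and 3 higher in osmotic stress, beside 5.85% and 15.9% of all rows, with a median of -0.17. The transcription factor genes Ddit3 (CHOP), Atf5 and Cebpb were the 3 higher members. Ddit3 measured 126 and 86 RPKM in osmotic stress, 25.8 and 43.4 RPKM in oxidative stress and 15.1 and 18.8 RPKM in untreated cells, so that all osmotic values exceeded all others (1.62 ± 0.35, adjusted p = 0.027). Atf5 differed by 1.07 ± 0.19 and Cebpb by 0.56 ± 0.15 (adjusted p = 0.02 and 0.045). None of the 3 calls held after median-of-ratios scaling, where the adjusted p was 0.054, 0.059 and 0.35. The lower members were led by the transporter Slc7a11 described above, then by Sesn2 and by Ppp1r15a (GADD34), the phosphatase subunit that reverses eIF2 alpha phosphorylation. Sesn2 measured 10.5 and 8.61 against 34.9 and 22 RPKM (-1.50 ± 0.27, adjusted p = 0.021) and Ppp1r15a 15.1 and 12.9 against 30.5 and 25.3 RPKM (-0.96 ± 0.22, adjusted p = 0.031). Sesn2 is also on the p53 list, and Slc7a11 on the NRF2 list.

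In endoplasmic reticulum chaperones, 1 of 18 was called, and it was lower, beside 5.85% of all rows. Canx (calnexin) measured 194 and 212 RPKM in osmotic against 349 and 384 RPKM in oxidative stress (-0.85 ± 0.17, adjusted p = 0.023). All 18 lay below the median of all rows, with a list median of -0.15. Cytosolic heat shock chaperones had 7 higher and 0 lower calls among 23, beside 15.9% and 5.85% of all rows, and a median of 0.47. With median-of-ratios factors 2 were called higher, beside 3.65% of all rows. Hspa1b, an inducible HSP70 gene, measured 6.21 and 8.14 RPKM in osmotic stress, 2.08 and 1.98 RPKM in oxidative stress, 5.85 and 6.41 RPKM in untreated cells and 535 and 457 RPKM in heat shock. The difference of 1.59 ± 0.17 (adjusted p = 0.009) therefore came with oxidative values below untreated ones, and osmotic values were far from those of heat shock. Its near-identical neighbour Hspa1a showed the same order (1.19 ± 0.20, adjusted p = 0.018), and reads shared between the copies could have been split. Cacybp differed by 0.79 ± 0.17 (adjusted p = 0.026), a call that ended after median-of-ratios scaling.

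Of 21 immediate early genes tested, 3 were higher in osmotic stress and 2 lower, beside 15.9% and 5.85% of all rows. The median was -0.14, and 0.16 without osmotic stress replicate 2 or 0.04 without oxidative stress replicate 1. Egr1, a zinc-finger factor induced by MAP kinase signalling, measured 19.9 and 9.06 RPKM in osmotic stress, 2.77 and 2.09 RPKM in oxidative stress and 0.488 and 0.474 RPKM in untreated cells. Both stresses were above untreated cells, and osmotic stress was 5.97-fold above oxidative stress (2.27 ± 0.44, adjusted p = 0.023). Fos, by contrast, measured 5.97 and 3.24 RPKM in osmotic and 5.62 and 4.29 RPKM in oxidative stress, above 0.331 and 0.41 RPKM in untreated cells (-0.14 ± 0.35, adjusted p = 0.79). The AP-1 subunit genes Jund and Jun went in opposite directions. Jund measured 134 and 111 against 51.8 and 47.9 RPKM (1.28 ± 0.22, adjusted p = 0.019), and Jun 22.4 and 20 against 68.7 and 39.3 RPKM (-1.28 ± 0.27, adjusted p = 0.026). Untreated values were 47 and 34.9 RPKM for Jund and 12.7 and 9.32 RPKM for Jun, so both genes were above untreated cells under both stresses, and further above in the stress where they were higher. The third higher member, Klf10 (1.01 ± 0.28, adjusted p = 0.047), lost its call after median-of-ratios scaling, and the second lower member was Maff, a small Maf protein (-0.93 ± 0.23, adjusted p = 0.037). Atf3 stayed under 0.5 RPKM in all 4 libraries and was not tested.

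Of 13 MAP kinase phosphatases and Sprouty-family genes, 2 were higher and 1 lower, beside 15.9% and 5.85% of all rows, and the median was 0.67. The ERK phosphatase Dusp6 measured 16.3 and 10.4 against 5.97 and 6.59 RPKM (1.00 ± 0.22, adjusted p = 0.027, 0.053 after median-of-ratios scaling), and the Ras pathway inhibitor Spred1 32.3 and 29.1 against 14 and 17.8 RPKM (0.94 ± 0.16, adjusted p = 0.02). Dusp8, a phosphatase of stress kinases, was lower (-1.07 ± 0.19, adjusted p = 0.021). Of 8 ligands and receptors of the EGF family only 3 were expressed enough to be tested, and 1 was called. That gene, Ereg (the EGF receptor ligand epiregulin), measured 12.8 and 11.8 RPKM in osmotic stress, 58 and 54.3 RPKM in oxidative stress and 6.9 and 9.32 RPKM in untreated cells (-2.15 ± 0.17, adjusted p = 0.0053).

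A few inflammatory, hypoxia and zinc genes were also called. Among 19 NF-kB and inflammatory targets, 2 were lower in osmotic stress and 0 higher, beside 5.85% and 15.9% of all rows, with a median of -0.17. Ptgs2, the inducible cyclooxygenase of prostaglandin synthesis, measured 32.1 and 21.9 RPKM in osmotic stress, 129 and 94.6 RPKM in oxidative stress and 26.3 and 25.7 RPKM in untreated cells (-2.04 ± 0.22, adjusted p = 0.0091). The cytokine gene Lif measured 3.71 and 2.91 against 17.3 and 9.87 RPKM (-1.84 ± 0.33, adjusted p = 0.02). For both, osmotic and untreated values overlapped, and the oxidative values stood apart. Vegfa, the angiogenic growth factor, was the 1 lower call among 19 hypoxia and glycolysis genes, at 21.3 and 25.9 against 59.7 and 66.9 RPKM (-1.41 ± 0.17, adjusted p = 0.011). That list had 3 higher calls, beside 15.9% of all rows, and a median of 0.24. The prolyl hydroxylase Egln1 was higher in osmotic stress (1.07 ± 0.19, adjusted p = 0.021), and the calls of Egln3 and Gapdh (0.85 ± 0.16 and 0.80 ± 0.18, adjusted p = 0.022 and 0.029) ended after median-of-ratios scaling. The zinc exporter gene Slc30a1 was the 1 called member of 4 metallothionein and zinc genes, at 1.73 and 2.13 against 6.53 and 5.06 RPKM (-1.37 ± 0.28, adjusted p = 0.024).

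TGF-beta and BMP feedback genes had 4 higher and 1 lower call among 12, beside 15.9% and 5.85% of all rows, and a median of 0.78. Id1, an inhibitor of basic helix-loop-helix factors and a direct BMP target, measured 119 and 74.3 RPKM in osmotic stress, 23.9 and 22.4 RPKM in oxidative stress and 64.1 and 51.8 RPKM in untreated cells. The untreated level of Id1 lay between the stresses, and the difference was 2.00 ± 0.32 (adjusted p = 0.018). The ligand Tgfb1 differed by 1.16 ± 0.18 and the inhibitory Smad6 by 1.26 ± 0.30 (adjusted p = 0.017 and 0.033, the latter 0.064 after median-of-ratios scaling), and the corepressor Tgif1 by -0.60 ± 0.16 (adjusted p = 0.039). Ctgf (Ccn2), a matricellular YAP target, measured 23.7 and 12.3 RPKM in osmotic stress and 3.64 and 1.32 RPKM in oxidative stress (2.68 ± 0.50, adjusted p = 0.022). Untreated cells had 27.2 and 14.5 RPKM of Ctgf, so its difference lay on the oxidative side, where the gene was low. Its list of 23 YAP, SRF and actin genes had 3 higher and 2 lower calls, beside 15.9% and 5.85% of all rows, and a median of 0.43. Vcl (vinculin) and Iqgap1 were lower (-0.75 ± 0.18 and -0.74 ± 0.18, adjusted p = 0.032 and 0.036), while Lats2 (1.10 ± 0.29, adjusted p = 0.041) and Tln1 (0.77 ± 0.21, adjusted p = 0.042) were higher until median-of-ratios scaling.

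Hexim1 was among the genes furthest toward osmotic stress. Its protein binds 7SK RNA and holds the elongation kinase P-TEFb inactive. Hexim1 measured 79.6 and 42.6 RPKM in osmotic stress, 8.17 and 7.32 RPKM in oxidative stress and 14.8 and 12.6 RPKM in untreated cells. Osmotic values were far above untreated ones and oxidative values below them, a 7.89-fold difference between the stress means (2.84 ± 0.28, adjusted p = 0.0083). The paralog Hexim2 measured 9.41 and 10.1 against 3.23 and 4.62 RPKM (1.23 ± 0.19, adjusted p = 0.017). Of 20 genes of P-TEFb and elongation control, 5 were higher and 0 lower, beside 15.9% and 5.85% of all rows, and the median of 0.30 was close to the 0.29 of all rows. After median-of-ratios scaling 3 were higher and 3 lower, beside 3.65% and 8.12% of all rows. Nelfe, a subunit of the pausing factor NELF, measured 12.2 and 2.57 against 0.823 and 0.0236 RPKM (2.90 ± 0.76, adjusted p = 0.04), with replicates that differed several-fold and a call lost after median-of-ratios scaling. The remaining 2, named after their values were seen, were Nelfa (1.22) and Cdk13 (0.79), of which Cdk13 lost its call after median-of-ratios scaling.

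The promoters below are shown because their genes had the largest differences with an entry in the RefSeq table (Vmac, Hexim1 and Gdf15), or, chosen after the motif search, because they hold matches for stress-responsive factors (Slc7a11 and Btg2). Each runs from 250 bases before to 50 after an annotated start in GRCm38.p6, a later build than the mm9 of the deposited values, and reads 5′ to 3′ along the gene's strand. Capitals mark matches, which describe these letters and are not shown to be bound. Vmac encodes a vimentin-associated coiled-coil protein, and of its 2 listed starts the one with a CRE match (TGACGTCA, the cyclic AMP response element) is shown, at chr17:56716872-56717171 on the minus strand.
Vmac: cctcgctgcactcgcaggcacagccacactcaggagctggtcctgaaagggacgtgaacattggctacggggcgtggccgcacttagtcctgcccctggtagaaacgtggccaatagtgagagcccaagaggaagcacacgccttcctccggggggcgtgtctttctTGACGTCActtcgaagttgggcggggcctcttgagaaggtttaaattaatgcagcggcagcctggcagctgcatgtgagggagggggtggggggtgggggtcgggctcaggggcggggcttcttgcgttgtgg
The Hexim1 promoter at chr11:103116075-103116374 on the plus strand held no match to the 6 motifs searched.
Hexim1: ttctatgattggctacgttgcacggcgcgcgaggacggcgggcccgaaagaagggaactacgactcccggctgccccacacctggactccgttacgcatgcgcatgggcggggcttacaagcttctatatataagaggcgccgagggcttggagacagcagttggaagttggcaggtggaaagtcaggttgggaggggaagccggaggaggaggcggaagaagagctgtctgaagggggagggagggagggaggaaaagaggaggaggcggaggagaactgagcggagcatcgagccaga
The Gdf15 promoter at chr8:70632407-70632706 on the minus strand, the upstream one of 2 starts listed, held no match either.
Gdf15: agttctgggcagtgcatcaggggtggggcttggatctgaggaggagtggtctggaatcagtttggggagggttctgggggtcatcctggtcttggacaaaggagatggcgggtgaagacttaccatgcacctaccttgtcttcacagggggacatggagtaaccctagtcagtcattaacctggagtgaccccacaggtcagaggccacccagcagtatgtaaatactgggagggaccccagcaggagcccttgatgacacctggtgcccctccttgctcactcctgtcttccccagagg
The Slc7a11 promoter at chr3:50443564-50443863 on the minus strand held 2 matches to the amino acid response element TGATGNAA.
Slc7a11: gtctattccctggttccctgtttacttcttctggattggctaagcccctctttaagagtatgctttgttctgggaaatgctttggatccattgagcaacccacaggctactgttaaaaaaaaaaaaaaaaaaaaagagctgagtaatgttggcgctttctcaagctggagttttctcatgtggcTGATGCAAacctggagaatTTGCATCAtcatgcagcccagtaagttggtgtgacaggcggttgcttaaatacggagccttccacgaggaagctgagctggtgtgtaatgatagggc
The Btg2 promoter at chr1:134079106-134079405 on the minus strand held a CRE match.
Btg2: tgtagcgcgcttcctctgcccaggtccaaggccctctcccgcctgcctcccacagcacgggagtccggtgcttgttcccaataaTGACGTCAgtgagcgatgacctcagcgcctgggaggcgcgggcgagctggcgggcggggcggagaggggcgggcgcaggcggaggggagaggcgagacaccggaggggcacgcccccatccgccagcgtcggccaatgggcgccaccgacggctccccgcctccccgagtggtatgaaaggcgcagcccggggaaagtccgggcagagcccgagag

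The same search covered the promoters of 8315 coding rows, 1535 of them higher and 297 lower in osmotic stress, on both strands. AP-1 sites (TGANTCA) were found in 11.4% of lower rows, 4.56% of higher rows and 6.21% of all. Amino acid response elements were found in 5.72%, 2.21% and 2.72%, and EGR sites (GCGGGGGCG) in 6.73%, 8.21% and 6.51%. The antioxidant response element core (TGACNNNGC) was found in 16.5% of lower, 15.9% of higher and 16.9% of all rows, CRE sites in 4.04%, 3.26% and 3.79%, and the tonicity enhancer in 3.37%, 3.39% and 4.33%. These shares are descriptions, with no test, of a window that leaves out distal elements. Lower rows held the highest share of AP-1 and amino acid response element matches, and higher rows the highest share of EGR matches.

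Among the 15 coding rows furthest toward osmotic stress, Vmac measured 26.2 and 16.8 RPKM in osmotic stress, 2.2 and 2.43 RPKM in oxidative stress and 3.22 and 2.27 RPKM in untreated cells. Osmotic values alone lay above the untreated range (2.93 ± 0.25, adjusted p = 0.0055). Its exons overlap those of Ndufa11 on the opposite strand, and which strand was counted is not stated. The uncharacterised gene AI837181 measured 47.4 and 30 against 8.09 and 4.18 RPKM (2.59 ± 0.38, adjusted p = 0.016). Cell-cycle genes Ska2 (kinetochore) and Fbxo5 (Emi1, an inhibitor of the anaphase-promoting complex) were both in this group. Ska2 measured 17.3 and 10.8 against 2.31 and 2.82 RPKM (2.21 ± 0.27, adjusted p = 0.011) and Fbxo5 24.9 and 11.7 against 3.67 and 3.56 RPKM (2.10 ± 0.34, adjusted p = 0.018). Gas1, a growth-arrest gene and Hedgehog co-receptor, measured 23 and 26.3 against 3.97 and 7.02 RPKM (2.11 ± 0.27, adjusted p = 0.012), with 19.5 and 16 RPKM in untreated cells. Fam46b (Tent5b) differed by 2.28 ± 0.39 and Miip by 2.15 ± 0.39 (adjusted p = 0.02 and 0.021).

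The chemokine gene Ccl11 and 4933433C11Rik (Stpg3) were barely detected in untreated cells and reached 1.68 and 3.58 RPKM and 5.8 and 3.87 RPKM in osmotic stress (2.09 ± 0.34 and 2.69 ± 0.32, adjusted p = 0.018 and 0.011). The histone row Hist1h2ao headed the ranking at 250 and 12.1 RPKM against 0.00814 and 0.0445 RPKM (6.74 ± 1.20, adjusted p = 0.02). Its osmotic replicates were far apart, 2 rows carry its name, and reads of near-identical H2A genes could have been split. The mitochondrial row mt-Nd4l overlaps mt-Nd4, and its oxidative values of 1.84 and 2.96e-10 RPKM were far apart (2.43 ± 0.67, adjusted p = 0.046, lost after scaling). Other kinds of row furthest toward osmotic stress were 2 of the 9 rows named Mir684-1 and 1 of the 940 rows named U6, a spliceosomal RNA. The U6 row measured 146 and 23 RPKM in osmotic stress and was listed at 0 in the other 6 libraries (adjusted p = 0.009). Of the 4 libraries compared, Ccl11, Hist1h2ao, this U6 row and 1 of the Mir684-1 rows reached 0.5 RPKM only in the osmotic ones. They thus entered through the group where they were high. The Mir684-1 rows reached 1500 and 2240 RPKM in osmotic stress replicate 1 but 10.6 and 42.5 RPKM in osmotic stress replicate 2, and both calls ended after median-of-ratios scaling.

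**Figure D4:**
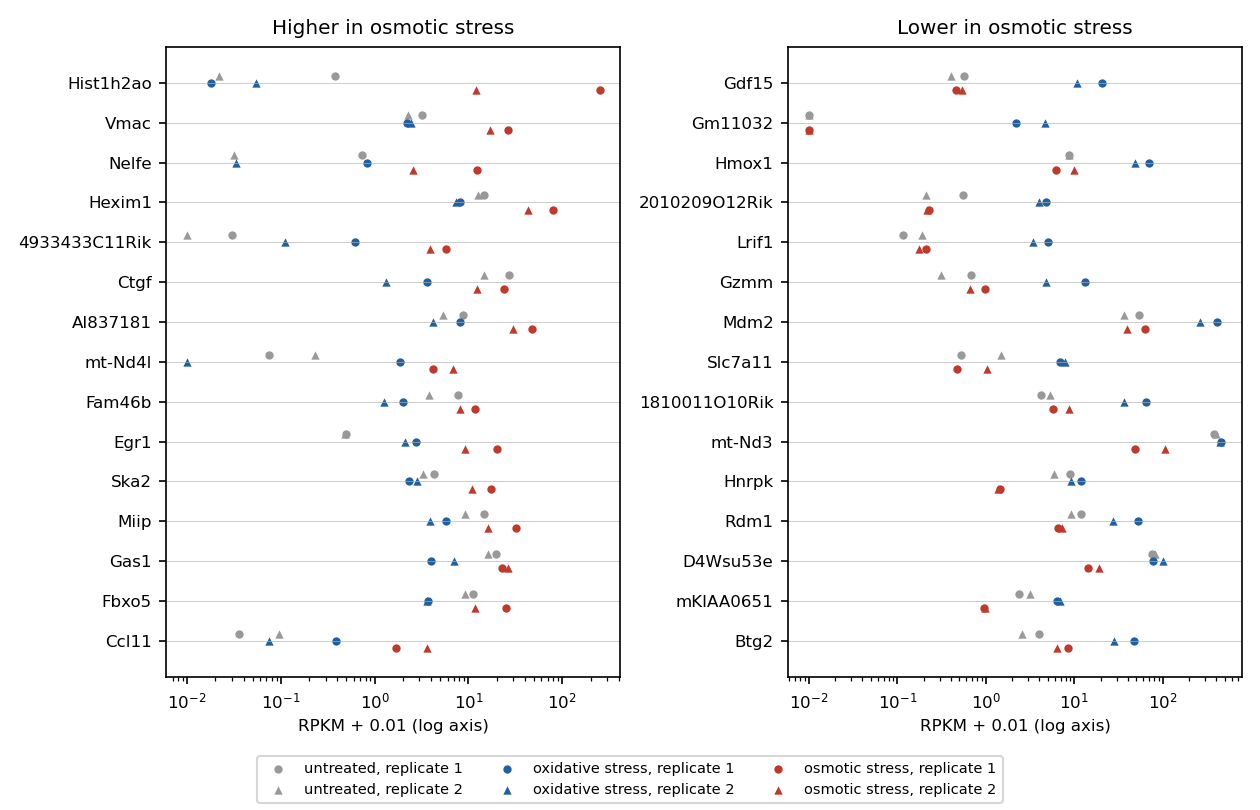
RPKM + 0.01 (x axis, log scale) in each library for the 15 called coding rows furthest toward osmotic stress (left) and the 15 furthest toward oxidative stress (right), with untreated cells in grey, oxidative stress in blue and osmotic stress in red, circles for replicate 1 and triangles for replicate 2. In every row the 2 osmotic values lie on 1 side of the 2 oxidative values, as the choice of rows requires, and Hist1h2ao shows osmotic values as far apart as 250 and 12.1 RPKM.

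Among the 15 coding rows furthest toward oxidative stress, several were low in osmotic stress and in untreated cells. Lrif1, a nuclear receptor-interacting protein, measured 4.98 and 3.38 RPKM in oxidative stress and at most 0.2 RPKM in osmotic and untreated cells (-2.76 ± 0.21, adjusted p = 0.0053). 2010209O12Rik (Chpf2) measured 4.72 and 3.96 against 0.219 and 0.206 RPKM (-2.76 ± 0.24, adjusted p = 0.0055), and Gzmm, a granzyme gene of lymphocytes, 13.3 and 4.79 against 0.963 and 0.658 RPKM (-2.72 ± 0.45, adjusted p = 0.018). Gm11032 measured 2.21 and 4.6 RPKM in oxidative stress and was listed at 0 in both osmotic and both untreated libraries. It had 2.08 RPKM in heat shock replicate 1 (adjusted p = 0.034 between the stresses, 0.05 after median-of-ratios scaling). Of the 4 libraries compared, Lrif1, 2010209O12Rik and Gm11032 reached 0.5 RPKM only in the oxidative ones. They thus entered through the group where they were high, and their low osmotic values follow in part from the selection. 1810011O10Rik (Tcim) measured 64.2 and 36.1 against 5.69 and 8.74 RPKM (-2.69 ± 0.36, adjusted p = 0.013), and Rdm1, a RAD52-motif protein gene, 51.9 and 27.7 against 6.54 and 7.23 RPKM (-2.38 ± 0.30, adjusted p = 0.012).

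For a second kind of lower row, osmotic values lay below untreated ones. D4Wsu53e (Rsrp1, an arginine- and serine-rich protein) measured 14.2 and 19.2 RPKM in osmotic stress, 77.1 and 101 RPKM in oxidative stress and 74.8 and 82.6 RPKM in untreated cells (-2.38 ± 0.20, adjusted p = 0.0055). The row Hnrpk, an older symbol of Hnrnpk, measured 1.44 and 1.37 against 11.9 and 9.15 RPKM, with 8.86 and 5.87 RPKM in untreated cells (-2.52 ± 0.23, adjusted p = 0.006). The row named Hnrnpk itself did not differ by the test, at 88.8 and 91.2 against 93.5 and 89.1 RPKM (-0.02 ± 0.14, adjusted p = 0.92), a row named here after its values were seen. mKIAA0651, which matches Arhgef2, measured 0.953 and 0.972 against 6.43 and 6.92 RPKM (-2.29 ± 0.22, adjusted p = 0.0075), with untreated values between them (2.39 and 3.13 RPKM). Mir17hg, from which the miR-17-92 microRNAs are processed, measured 0.684 and 0.697 RPKM in osmotic stress, 5.01 and 4.51 RPKM in oxidative stress and 4.6 and 4.33 RPKM in untreated cells (-2.14 ± 0.16, adjusted p = 0.0053). Oxidative and untreated values of D4Wsu53e and Mir17hg were close together, and heat shock values of Mir17hg (0.304 and 0.369 RPKM) were lower still. Of the 30 leading coding rows, 11 have exons that overlap another gene of the GENCODE M21 annotation, 3 on the same strand and 9 on the opposite strand, and their values may hold reads of that gene.

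Histone genes were the list furthest toward osmotic stress. All 48 linker and core histone genes tested had a positive difference, the 2 groups did not overlap for 47 of them (50.8% of all rows were higher without overlap), and the median was 0.99. The test called 22 higher and 0 lower, beside 15.9% and 5.85% of all rows. After median-of-ratios scaling 8 were higher, beside 3.65% of all rows, and the median was 0.67. Summed over the list, levels were 29000 and 19100 RPKM in osmotic stress and 12800 and 10800 RPKM in oxidative stress. Hist1h2ab measured 717 and 412 RPKM in osmotic stress, 185 and 175 RPKM in oxidative stress and 399 and 327 RPKM in untreated cells (1.59 ± 0.31, adjusted p = 0.023). Untreated values of Hist1h2ab were close to osmotic replicate 2, and oxidative values were the lowest of the 3 groups. Hist1h2bg differed by 1.50 ± 0.39 and Hist2h3b by 1.73 ± 0.42 (adjusted p = 0.039 and 0.034), and both calls ended after median-of-ratios scaling. All or almost all histone calls were lost without osmotic stress replicate 1, oxidative stress replicate 1 or oxidative stress replicate 2. The list median was then 0.69, 1.10 and 0.96. All 48 differences stayed positive, which was fixed in advance for the 47 genes whose groups do not overlap. Without heat shock replicate 1 or 2 the test called 8. Histone genes are near-identical in sequence and lie in clusters, so their rows are not independent.

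Proliferation genes outside the histones gave few calls, to be read beside 15.9% of all rows called higher and 5.85% called lower. Of 18 mitosis genes 0 were called, with a median of 0.79 that was 0.28 without osmotic stress replicate 1. Plk1, the mitotic kinase with the largest difference there, measured 26.9 and 13.7 against 9.35 and 6.13 RPKM (1.29 ± 0.50, adjusted p = 0.1). DNA replication genes had 2 higher calls among 20 and a median of 0.43, which was 0.17 without osmotic stress replicate 1. The called genes were the S-phase cyclins Ccne1 (0.96 ± 0.17, adjusted p = 0.021) and Ccne2 (0.89 ± 0.22, adjusted p = 0.035, lost after scaling). Of 10 MYC network genes 2 were called, Mxd4 and Mlx (0.89 ± 0.25 and 0.63 ± 0.13, adjusted p = 0.048 and 0.026), and neither held after scaling.

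RNA-binding and RNA-processing genes were called in both directions. Of 25 hnRNP genes 7 were higher and 1 lower, beside 15.9% and 5.85% of all rows, with a median of 0.27. With median-of-ratios factors the split was 3 and 3, beside 3.65% of all rows higher and 8.12% lower. Hnrnpd (AUF1, which binds AU-rich elements) measured 64.5 and 48 RPKM in osmotic stress, 15.9 and 18.7 RPKM in oxidative stress and 18.8 and 22.2 RPKM in untreated cells (1.66 ± 0.20, adjusted p = 0.011). Pcbp1 measured 62.1 and 42.8 against 18.6 and 19.8 RPKM (1.40 ± 0.29, adjusted p = 0.025), while Ewsr1 was lower (-0.59 ± 0.14, adjusted p = 0.032). For Hnrnpd the osmotic values were above, and the oxidative values near or below, those of untreated cells. Among 21 SR proteins and CLK kinases 2 were higher and 3 lower, with a median of 0.14. Srsf5 measured 33 and 31.6 against 64.1 and 72.2 RPKM (-1.06 ± 0.14, adjusted p = 0.013), and the splicing kinase Clk1 (-0.72 ± 0.18, adjusted p = 0.036) and Srrm1 (-0.55 ± 0.15, adjusted p = 0.045) were lower. Srsf9 and Srsf6 were called higher (0.67 ± 0.15 and 0.56 ± 0.15, adjusted p = 0.029 and 0.041) and lost their calls after median-of-ratios scaling.

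Of 35 cleavage, polyadenylation and termination genes, whose products release transcripts at gene ends, 7 were higher and 2 lower, beside 15.9% and 5.85% of all rows, with a median of 0.28. With median-of-ratios factors 2 were higher and 4 lower, beside 3.65% and 8.12% of all rows. The balance thus moved with the scaling as it did over all rows. The 2 lower genes act in termination. Ppp1r10 (PNUTS, a protein phosphatase 1 subunit) measured 21.1 and 20.6 RPKM in osmotic stress, 63.2 and 58.6 RPKM in oxidative stress and 51.1 and 43.3 RPKM in untreated cells (-1.52 ± 0.13, adjusted p = 0.0055). Pcf11, a cleavage factor subunit that binds RNA polymerase II, measured 16.2 and 11.8 against 27 and 24.3 RPKM (-0.86 ± 0.19, adjusted p = 0.028). Both were below untreated cells in osmotic stress and above them in oxidative stress. The cleavage factor kinase Clp1 (1.00 ± 0.13, adjusted p = 0.013) and Cpsf2 (0.85 ± 0.13, adjusted p = 0.017) were higher in osmotic stress, and the call of Wdr82 (0.86 ± 0.20, adjusted p = 0.033) ended after median-of-ratios scaling.

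mRNA decay factors had 5 higher calls and 1 lower call (Btg2) among 12, beside 15.9% and 5.85% of all rows, with a median of 0.37. With median-of-ratios factors 1 was higher and 1 lower, beside 3.65% and 8.12% of all rows. The AU-rich element binding protein Zfp36l1 measured 6.7 and 5.2 against 2.72 and 3.01 RPKM (0.93 ± 0.17, adjusted p = 0.021). Its paralog Zfp36l2 (1.45 ± 0.37, adjusted p = 0.037) and the deadenylation adaptor Tob1 (1.29 ± 0.29, adjusted p = 0.029) missed the threshold after median-of-ratios scaling, with adjusted p = 0.07 and 0.06. Btg2 and Tob1, 2 members of 1 protein family, thus had differences of opposite sign.

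Calls among small nucleolar RNAs, which guide RNA modification, went mostly one way. Of 210 tested rows with snoRNA names, 27 were lower in osmotic stress and 1 higher, beside 5.85% and 15.9% of all rows. In both osmotic libraries 21 were listed at 0, against 0 rows in both oxidative libraries, and 12 of the 21 were among the lower calls. A row at 0 in both libraries of 1 stress could enter only through the other stress, where it was high. Counts of such rows are therefore a description and are not read against all rows. SNORD58 measured 663 and 415 RPKM in oxidative stress and 226 and 937 RPKM in untreated cells, and SNORD63 113 and 106 RPKM in oxidative stress, while both were listed at 0 in both osmotic and both heat shock libraries (adjusted p = 0.0032 and 6.7e-06). SNORD24 was listed at 0 in the same 4 libraries against 139 and 105 RPKM in oxidative stress (adjusted p = 0.024). SNORD63 and SNORD24 were also listed at 0 in at least 1 untreated library, and a listed 0 can be a failed estimate, so no fold is given. The 3 names stand on 4, 2 and 2 rows, and each value is that of 1 row. Over all kinds of row, 32 lower rows were at 0 in both osmotic libraries and 7 higher rows at 0 in both oxidative libraries. Among 14 nuclear long RNAs and snoRNA host genes 2 were higher and 2 lower, with a median of -0.41. Neat1, the scaffold of paraspeckles, measured 113 and 193 against 36.9 and 70.8 RPKM (1.52 ± 0.43, adjusted p = 0.049), and the host genes Snhg5 and Snhg4 differed by 0.71 ± 0.15 and -0.90 ± 0.16 (adjusted p = 0.025 and 0.021). The calls of Neat1 and Snhg5 ended after median-of-ratios scaling. Malat1 was not called, with its 0 in 1 library (adjusted p = 0.21).

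Ribosomal protein genes gave more lower than higher calls. Of 75 tested, 8 were lower (5.85% of all rows) and 4 higher (15.9% of all rows), with a median of 0.14. After median-of-ratios scaling 11 were lower and 0 higher, beside 8.12% and 3.65% of all rows. Rps27a measured 23.2 and 25.4 RPKM in osmotic stress, 97.5 and 59.9 RPKM in oxidative stress and 54.1 and 53.8 RPKM in untreated cells (-1.64 ± 0.22, adjusted p = 0.014). Rpl26 (-1.49 ± 0.26, adjusted p = 0.02) and Rpl9 (-1.43 ± 0.26, adjusted p = 0.021) had like differences. Rpsa, Rpl38 and Rpl4 were higher by 0.86 ± 0.16, 0.85 ± 0.20 and 0.76 ± 0.22 (adjusted p = 0.021, 0.032 and 0.049) until median-of-ratios scaling. Many ribosomal protein genes have processed pseudogenes with near-identical sequence, so reads could have been split.

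Mitochondrially encoded genes were lower in osmotic stress for 10 of 11 tested, 8 of them without overlap of the groups, beside 16.5% of all rows. The test called 1 lower and 1 higher, beside 5.85% and 15.9% of all rows. Their summed level was 2550 and 2650 RPKM in osmotic stress and 3940 and 4100 RPKM in oxidative stress. The called lower gene, mt-Nd3 of respiratory complex I, measured 48.7 and 107 against 459 and 444 RPKM, with 377 and 395 RPKM in untreated cells (-2.63 ± 0.45, adjusted p = 0.02). The RNA was nuclear-enriched, and the part of mitochondrial RNA carried into the nuclear fraction in this difference was not tested.

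The remaining lists are given by their counts, to be read beside 15.9% of all rows called higher and 5.85% called lower. Proteasome subunits had 5 higher and 0 lower calls among 31 with a median of 0.30, led by Psmd12, Psmd3 and Psmb5 (0.69 ± 0.17, 0.67 ± 0.14 and 0.60 ± 0.14, adjusted p = 0.036, 0.024 and 0.034). After median-of-ratios scaling no proteasome subunit was called, beside 11.8% of all rows. Ubiquitin and autophagy genes had 2 higher calls among 19, Wipi1 and Atg5 (0.90 ± 0.25 and 0.68 ± 0.13, adjusted p = 0.045 and 0.024), which also ended after scaling. Cholesterol genes had 4 higher and 1 lower call among 22. The synthase Hmgcs1 measured 47.2 and 48.1 against 20.7 and 24.4 RPKM (1.07 ± 0.14, adjusted p = 0.012), while Sc4mol, a sterol demethylation enzyme gene, measured 5.45 and 7.65 against 16 and 18.6 RPKM (-1.35 ± 0.22, adjusted p = 0.018). Mvd and Stard4 were called higher (0.80 ± 0.16 and 0.67 ± 0.18, adjusted p = 0.025 and 0.043) until median-of-ratios scaling. Of 13 circadian genes 2 were higher: the output factor Dbp, at 17.3 and 15.1 against 5.5 and 5.88 RPKM (1.43 ± 0.20, adjusted p = 0.015), and Clock (0.62 ± 0.17, adjusted p = 0.044, lost after scaling). No fibroblast matrix gene was called among 19, with a median of -0.10 and 14 members below the median of all rows. The largest difference there was that of Col5a1 (0.55 ± 0.22, adjusted p = 0.11).

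**Figure D5:**
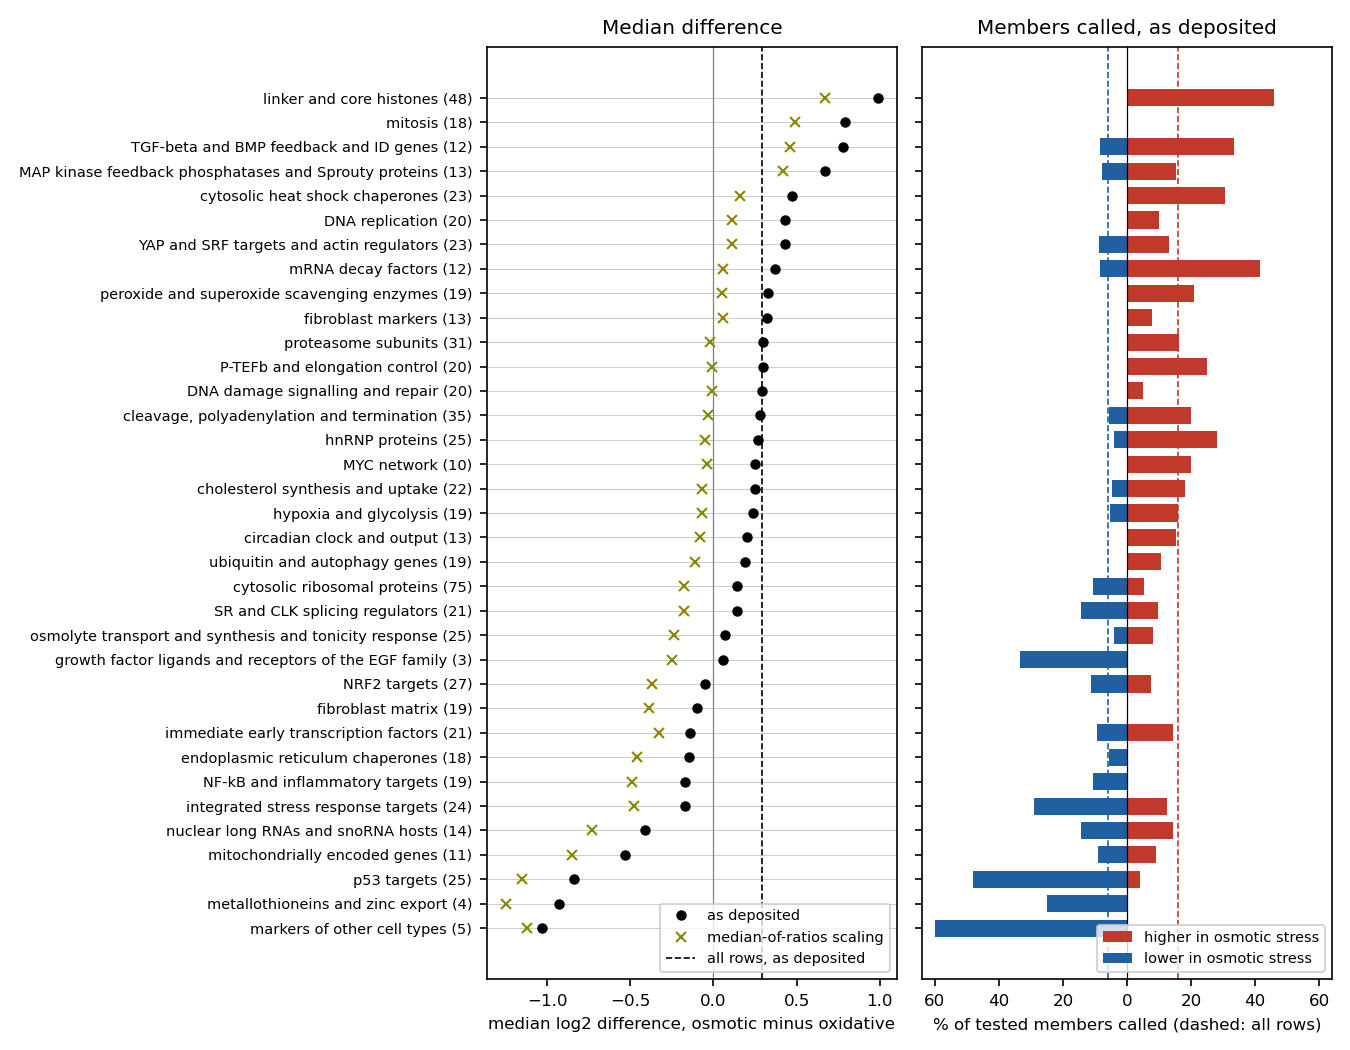
Left, median log2 difference of the tested members of each gene list (x axis), osmotic minus oxidative stress, as deposited (points) and after median-of-ratios scaling (crosses), with the number tested in brackets and the median of all rows dashed. Right, percent of tested members called higher (red) or lower (blue) in osmotic stress, with the percent of all rows dashed (15.9% and 5.85%); histones reach a median of 0.99 and p53 targets -0.84.

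Fibroblast markers were expressed in all 4 libraries. The 13 fibroblast markers were all tested and 1 was called higher, beside 15.9% of all rows. That gene was the transcription factor Twist1 (1.23 ± 0.18, adjusted p = 0.016). The summed level of the 13 was 7190 and 8160 RPKM in osmotic and 6830 and 6000 RPKM in oxidative stress. Of 13 markers of other cell types, 8 stayed too low to be tested, among them the epithelial Epcam, the leukocyte Ptprc and the hepatocyte Alb, and the sum over the 5 tested was 24 and 23.5 against 32.2 and 30.7 RPKM. Of these 5, 3 were called lower in osmotic stress, but they reached 0.5 RPKM only in the 2 oxidative libraries and so entered through the group where they were high. Cdh1 (E-cadherin) measured 0.064 and 0.1 RPKM in osmotic stress, 1.01 and 0.663 RPKM in oxidative stress and 0.0236 and 0.0235 RPKM in untreated cells (-1.19 ± 0.18, adjusted p = 0.017). Pecam1 measured 0.0829 and 0.0808 against 0.887 and 0.515 RPKM (-1.03 ± 0.20, adjusted p = 0.023) and Tubb3 0.069 and 0.0764 against 1.99 and 0.521 RPKM (-1.48 ± 0.38, adjusted p = 0.038, lost after scaling). Cdh1, Pecam1 and Tubb3 belong to different cell types and were near 0 in untreated cells. Most of the sum over the 5 tested markers came from the 2 that were not called, Cd68 and Des, so not all such markers were near 0. The part of other cells in the result was not tested.

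Rows that were near silent in untreated cells entered only by reaching 0.5 RPKM under stress, often through the stress where they were high. Their counts are therefore a description and are not read against all rows. Of 833 rows under 0.5 RPKM in both untreated libraries, 286 were lower in osmotic stress and 52 higher. Among the 389 protein-coding ones, 152 were lower and 16 higher. An expressed gene (averaging 1 RPKM or more in the 4 libraries) on the same strand began upstream and ended no more than 10 kb before the start, or ran into the gene, for 45.8% of the 389, 51.3% of the 152 and 25% of the 16. Whether reads from upstream transcription reached these rows was not tested, since the tables give 1 value per gene.

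Called genes were somewhat shorter than all genes. In 10494 coding genes with 1 row, the median genomic span was 22.7 kb, against 19.8 kb for higher and 17.2 kb for lower genes. Single-exon genes made up 3.28% of all, 5.02% of higher and 5.32% of lower genes. The share called higher went from 22.2% of genes under 5 kb to 14.5% of those over 100 kb, and the share called lower from 5.46% to 2.16%. The median difference by span lay between 0.31 and 0.36 in every class from under 5 kb to over 100 kb, but the 2 tables moved in opposite ways. From the shortest to the longest class the median difference went from 0.33 to 0.53 in the first table and from 0.39 to 0.13 in the second. The difference by gene length was therefore not alike in the 2 tables.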

How the data were processed

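Nuclear-enriched RNA of 8 libraries was rRNA-depleted and sequenced strand-specifically, per the labels' protocols. The submitters' processing notes name mm9 as the mouse build and Bowtie, SAMtools and Cufflinks as tools. Their versions, the gene annotation and the counted strand are not stated there. Per the file headers the deposited unit is RPKM, in 2 tables with 1 library per group each. Depth is unknown, so no counting intervals were computed.

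One linear model of 4 groups was fitted to log2(RPKM + 0.5) of 8 libraries with limma 3.58.1 under R 4.3.3. Variances were moderated toward a trend on mean level (prior df 2.81, residual df 4, median SE 0.208). The contrast was osmotic minus oxidative stress, two-sided, with Benjamini-Hochberg adjustment over 15398 rows and a threshold of 0.05. ± values are SEs of a log2 difference. An exact permutation test of 2 against 2 libraries cannot go below p = 0.333, so the tests rest on a spread shared across rows and groups. The fit was tested on simulated data.

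Named rows were the 15 largest called coding rows in each direction with a mean of at least 1 RPKM and groups that do not overlap, 3 rows of other kinds in each direction, up to 3 called members of each of 35 lists in each direction and 20 index genes. Where a list had no call, its largest difference was named. Of 781 list symbols 780 had a row and 726 were tested. The rows compared, the lists and the rules were chosen with earlier results of these data known. Lists are described by counts and medians, with no set test. The values of 1 named row are not reported here. Gene types and structures came from GENCODE M21 by name and promoters from RefSeq GRCm38.p6, neither in the build of the values. Alternatives were other scalings, pseudocounts, filters, a replicate block, group weights and leaving out each library; fits with median-of-ratios scaling combined with the block or a left-out library were added after seeing the data.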

Additional observations from a re-analysis of the deposited data

How the results depend on the processing

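The higher-to-lower split followed the scaling: 3350 calls (2449 higher, 901 lower) became 1812 (562 and 1250) with median-of-ratios factors, 1674 (772 and 902) with quantile normalization and 1142 (99 and 1043) with a common column sum, where the median of all rows was -0.46 and 1 row held 1030000 of the 1943000 RPKM of osmotic stress replicate 1. That scaling turned the sign of Mapk14 (-0.25), Ftl1 (-0.06), Txn2 (-0.04), Sepx1 (-0.16), Cebpb (-0.30), Cacybp (-0.07), Tln1 (-0.09), Mvd (-0.03), Stard4 (-0.17), Gapdh (-0.05), Clock (-0.20), Srsf9 (-0.19), Srsf6 (-0.30), Snhg5 (-0.15), Mlx (-0.20), Rpsa (-0.01), Rpl4 (-0.11), Psmd12 (-0.17), Psmd3 (-0.19), Psmb5 (-0.24) and Atg5 (-0.14). A fit of the 4 libraries alone gave 47 calls (5 and 42). Leaving out 1 library gave 33 to 3217 calls in all, 8 to 2379 higher and 25 to 838 lower, and with median-of-ratios scaling 132 (23 and 109) without osmotic stress replicate 1, 1491 (506 and 985) without osmotic stress replicate 2, 164 (27 and 137) without oxidative stress replicate 1 and 878 (137 and 741) without oxidative stress replicate 2. Against 161 calls among list members, there were 60 with a common column sum, 91 without a filter and 5 in the 4 libraries alone, and 2 to 166 when 1 library was left out. Against 129 calls among the named rows, there were 82 with median-of-ratios factors, 84 with quantile normalization (83 of the 129), 54 with a common column sum (53 of the 129), 82 without a filter, 11 in the 4 libraries alone and 7 to 109 when 1 library was left out. The cause was not tested beyond the construction of each setting. The labels do not say that a replicate number marks a shared batch. Replicate deviations of the osmotic and oxidative groups correlated with r = 0.16, and 2 pairs decide nothing. A replicate block raised the calls to 5483 (4232 and 1251), with 300 among list members, and with median-of-ratios scaling to 3618 (1604 and 2014). Pseudocounts of 0.1 and 1, filters at 1 RPKM or over all libraries, no mean trend and group weights kept the total within 1.5 times. Depth per library is unknown, so low rows carry errors that the RPKM values do not show.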
